A study of Mus musculus with 13 samples.

Results

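Broad accessible regions are stretches of open chromatin at least 1500 bp wide, end minus start in mm9, on the autosomes. They number 3124 of the 115295 regions in the deposited table, or 2.78% of its 112207 autosomal regions and 8.96% of the autosomal bases the table covers. The rule that chose them uses width alone and no count, though it was set with earlier results of these data known. They are set beside the 42749 autosomal regions of 300 to 600 bp, called narrow here. Regions were called from reads, so a region with more reads can also be drawn wider, and width and level are not independent measures.

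In ATAC-seq a transposase cuts open chromatin and tags the ends, so reads pile up where nucleosomes are sparse and regulatory proteins bind. In mammalian cells wide stretches of accessible chromatin are commonly found at CpG-rich promoters and at dense groups of enhancers, while isolated enhancers and insulator sites usually give narrow ones. Haematopoietic stem cells (HSCs) keep all blood lineages in supply, and HSCs that express Vwf, the gene of von Willebrand factor, include cells biased towards platelets.

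The assay was bulk Omni-ATAC-seq, run on HSCs of C57BL/6 mice. Each recipient had been given 1 Vwf+ HSC, and its blood lineages over the next 16 weeks put it in a P-restricted, a PEM-restricted or a multilineage class, where P stands for platelets and PEM for platelets, erythroid and myeloid cells in the field's usage. Donor-derived cells of the same sorting phenotype in every group (LSK Flt3- CD150+ CD48- CD45.2+ Gata1-) were sorted from bone marrow, 500 per replicate. This gave 4 libraries for the multilineage class (MUL-HSC), 6 for the PEM-restricted class (PEM-HSC) and 3 for the P-restricted class (PLT-HSC). No age is given. Nothing in the labels says whether replicates of a group are different recipients, so each test speaks of the spread among these libraries, and that spread may be technical. The counts are sums over all sorted cells, so fewer cells open at a region and less opening per cell cannot be told apart.

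Library totals ranged from 1276962 to 3851165 counts, and 5 of them held under 2000000, namely replicates 1 and 2 of MUL-HSC and 2, 3 and 6 of PEM-HSC. One library, PEM-HSC replicate 3, gave broad regions a larger share of its counts than the rest of its group, and several results are also given without it. The labels give no batch of sorting or sequencing.

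Most broad regions were little above the threshold in width. Their median width was 1697 bp, with quartiles of 1586 and 1876 bp and a maximum of 3907 bp. At least 2000 bp were spanned by 480 of them, and at least 2500 bp by 56. The 133 regions of 1500 to 1510 bp, just inside the threshold, had a median level of 38.7 CPM (counts per 1e+06 counts of a library), and the 97 regions of 1490 to 1499 bp, just outside it, had 39.3 CPM. A further 60 regions of this width lay on chromosome X and 0 on chromosome Y, and these are not members.

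Broad regions were among the most strongly open of the table, with a median of 48.2 CPM against 2.89 CPM for narrow regions. Per kb of width, which takes out the longer target, the medians were 27.5 and 6.97 CPM per kb, a ratio of 3.94. This ratio fell to 1.14 when both classes were restricted to regions with a mean of at least 20 counts, a limit that by its construction keeps only the stronger narrow regions. The ratio was highest in PEM-HSC replicate 3 at 4.61 and lay between 3.48 and 4.17 in the other 12 libraries. Of the 5000 regions with the highest CPM, 1878 were broad and 42 narrow. Among the members, width went with CPM (Spearman rho 0.275, n = 3124 regions) but hardly with CPM per kb (0.066). These are descriptions across regions that share libraries, with no test.

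**Figure D1:**
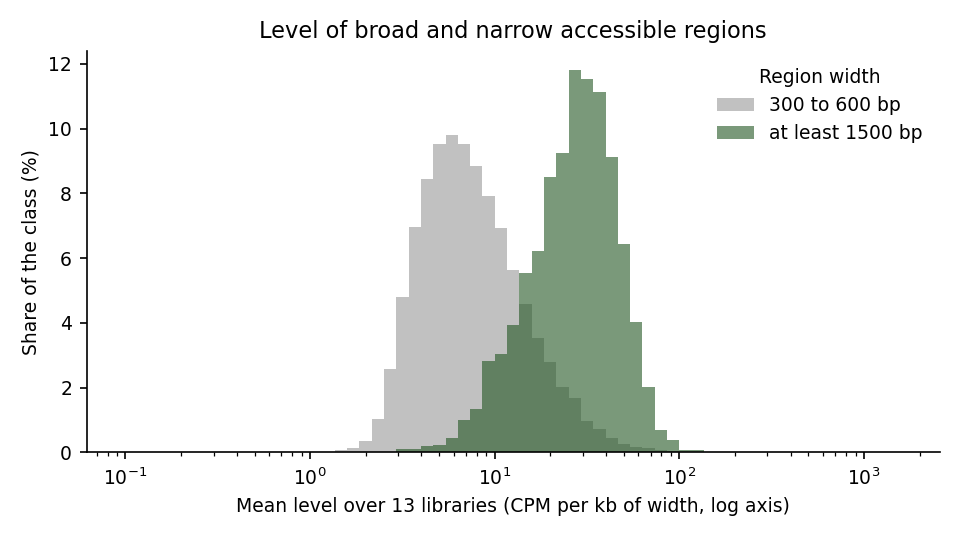
Mean level of each region over the 13 libraries in CPM per kb of width (log axis), as the share of each class in percent per bin, for broad regions (green) and narrow regions (grey). The broad regions centre on a median of 27.5 CPM per kb and the narrow ones on 6.97, and the classes overlap.

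The members themselves spanned a wide range of level. The strongest per kb was chr12:56255306-56256824 at 123 CPM per kb. Its libraries read 189, 186, 198 and 149 CPM in MUL-HSC, 162, 191 and 168 in PLT-HSC, and 171 to 252 with a median of 186 in PEM-HSC, so the groups overlapped. Next came chr16:42874965-42876663 at 120.9 CPM per kb, chr17:26056125-26057803 at 103 and chr11:97048190-97050099 at 102, and then chr19:6363109-6364731 at 99.7. The weakest was chr15:7347551-7349106 at 2.94 CPM per kb, where MUL-HSC summed to 27 counts over 4 libraries, PEM-HSC to 70 over 6 and PLT-HSC to 60 over 3. The other 4 weakest, chr14:106736930-106738500, chr10:70061092-70062742, chr10:108447375-108449074 and chr5:21849661-21851215, had 3.00 to 3.86 CPM per kb. Such regions are wide without being strong, and 28 of the 3124 had under 10 CPM.

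Broad regions took a nearly constant share of each library. The share was 16.4%, 16.1%, 16.4% and 15.8% in MUL-HSC replicates 1 to 4, and 16.9%, 15.8% and 16.5% in PLT-HSC replicates 1 to 3. PEM-HSC replicates 1 to 6 gave 16.9%, 16.9%, 18.2%, 16.6%, 16.5% and 16.4%. Wilson 95% intervals reached at most 0.0651 percentage points to either side. They cover counting error within a library only, and not the spread between libraries. The reads carry no molecular identifiers, so even the counting error may be understated. The MUL-HSC mean was 16.2% ± 0.293 (SD, n = 4), the PEM-HSC mean 16.9% ± 0.671 (SD, n = 6) and the PLT-HSC mean 16.4% ± 0.572 (SD, n = 3), and the libraries of all 3 groups overlapped. Without PEM-HSC replicate 3 the PEM-HSC mean was 16.7% ± 0.259 (SD, n = 5).

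**Figure D2:**
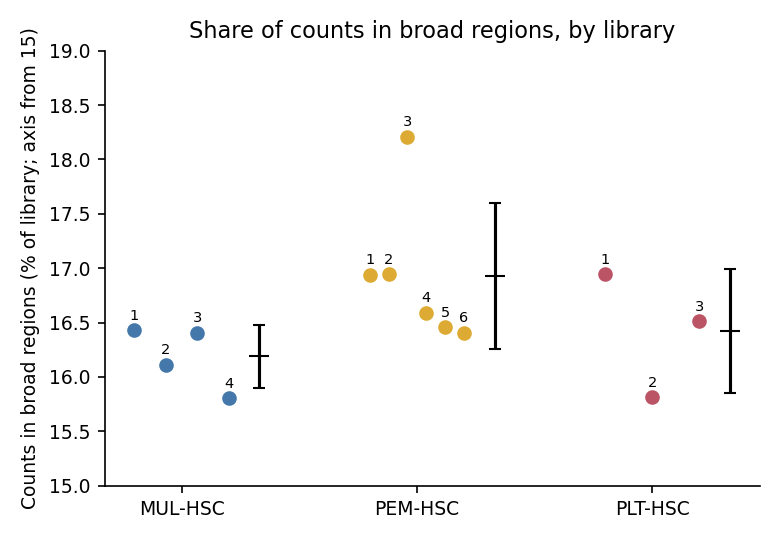
Percent of each library's counts that fell in broad regions, by group, with the replicate number above each point; the black mark and bar give the group mean and SD, and the axis starts at 15. Of the 13 libraries 12 lie between 15.8% and 16.9%, and PEM-HSC replicate 3 lies at 18.2%.

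The depth behind a broad region was correspondingly larger. The median broad region held 62 to 187 counts per library and the median narrow region 4 to 11. All 3124 broad regions passed the filter on low counts, against 20569 of 42749 narrow ones (48.1%), so the spread, fold changes and calls given below for narrow regions describe those that passed and not the class. Widths, levels and distances are over all 42749.

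Replicates of a group agreed closely at broad regions. The coefficient of variation between libraries of a group (CV, the SD over the mean, pooled over the 3 groups) had a median of 12.6% over broad regions and 34.8% over narrow regions. Counting alone would give 9.80% and 31.1%, and with the counting part taken off region by region the medians were 7.54% and 17.1%. The estimated spread lay at or below the counting part in 20.7% of broad and 28.6% of narrow regions. That share also depends on depth and on the number of libraries, so it does not mark single regions as free of further spread. Group by group, the median beyond counting at broad regions was 4.30% (MUL-HSC), 7.62% (PEM-HSC) and 4.73% (PLT-HSC). A median of spreads each estimated from few libraries tends to lie low, more so with fewer libraries. The groups differ in their number of libraries, so these values do not rank the groups. Over the pooled groups without PEM-HSC replicate 3 the median beyond counting at broad regions was 6.07%.

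The 2 classes were also compared within bands of level, which match them only roughly. Up to 40 CPM the median broad region of each band was the stronger. It had 8.44, 16.1 and 31.1 CPM in the bands below 10, from 10 to 20 and from 20 to 40 CPM. Narrow regions there had 4.61, 12.7 and 24.1 CPM, so a band does not hold level equal. Below 10 CPM the CV beyond counting was 18.8% over 28 broad regions and 18.3% over 17997 narrow ones, and from 10 to 20 CPM it was 11.6% over 270 and 12.6% over 2140. Weak broad regions thus varied between replicates about as much as the narrow regions of their band, which were weaker in the median. The classes parted higher up, at 7.86% over 869 broad regions and 11.3% over 387 narrow ones from 20 to 40 CPM. From 40 to 80 CPM the values were 6.75% over 1452 broad regions and 32.0% over 36 narrow ones, and from 80 CPM 7.95% over 505 and 38.3% over 9. Few narrow regions were that strong, so the upper 2 bands describe a handful of them. The median absolute log2 fold change of PLT-HSC against MUL-HSC was 0.49 for broad and 0.37 for narrow regions below 10 CPM, 0.23 and 0.24 from 10 to 20 CPM, and 0.15 and 0.16 from 20 to 40 CPM. It was 0.09 and 0.33 from 40 to 80 CPM, and 0.06 and 0.44 from 80 CPM. The classes were thus close from 10 to 40 CPM. Below that the broad regions differed more than the narrow ones, and above it less.

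**Figure D3:**
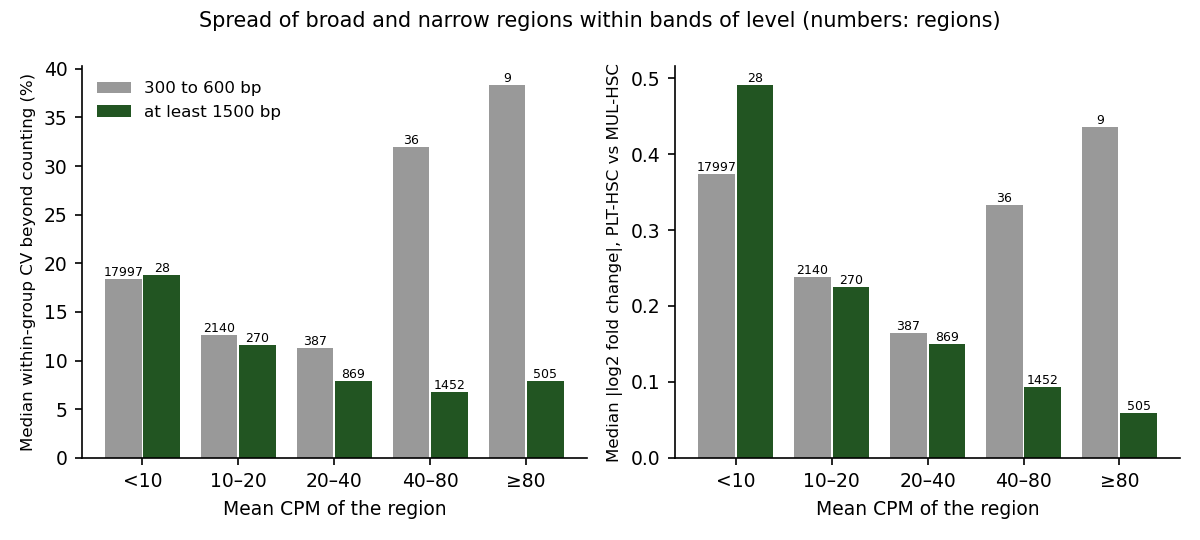
Median within-group CV beyond counting in percent (left) and median absolute log2 fold change of PLT-HSC against MUL-HSC (right), by band of mean CPM, for broad regions (green) and narrow regions that passed the filter (grey); the number of regions stands above each bar. Broad regions fall from 18.8% in the lowest band to 6.75% from 40 to 80 CPM, while the 36 and 9 narrow regions in the upper 2 bands stand at 32.0% and 38.3%.

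A small set of broad regions went against this steadiness. The CV beyond counting was over 30% in 55 of 3124 broad regions (1.76%), and in 11 of the 1957 with at least 40 CPM. The widest region of the table, chr18:73849207-73853114 (3907 bp), was one of these at 52.0%. MUL-HSC libraries read 187, 286, 112 and 80.9 CPM there, PLT-HSC libraries 47.6, 102 and 114, and PEM-HSC libraries 22.1 to 120 with a median of 52.5. The groups overlapped and neither comparison with MUL-HSC passed the threshold (log2 fold change -0.88 ± 0.55 with adjusted p = 0.512 in PLT-HSC, -1.53 ± 0.49 with adjusted p = 0.194 in PEM-HSC; SE, edgeR quasi-likelihood test). The sixth widest, chr12:60137115-60140073, had a CV of 47.0%, with 60.2 to 80.1 CPM in MUL-HSC, 29.2, 36.6 and 69.7 in PLT-HSC, and 33.1 to 53.5 in 5 PEM-HSC libraries against 115 in PEM-HSC replicate 6. The other 6 of the 8 widest were steady. At chr5:3341113-3344709 (3596 bp) all 13 libraries lay between 86.5 and 101 CPM, at chr5:43623533-43626726 between 113 and 135, and at chr3:58218227-58221293 between 82.5 and 106. The last 3, chr11:70466736-70469714, chr18:39648537-39651389 and chr10:12586622-12589470, had CVs beyond counting of 5.24% to 9.605%.

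Of the 11 strong and variable regions, 3 lay near each other on chromosome 14 and were picked out after their values were seen: chr14:5659138-5660967, chr14:5943750-5945578 and chr14:6747310-6749121. Their levels ran from 11.4, 7.95 and 10.4 CPM in MUL-HSC replicate 4 to 108, 100.5 and 108 CPM in PEM-HSC replicate 6. Within a library the highest of the 3 was 1.03 to 1.43 times the lowest, with a median of 1.08, so the 3 moved together, while libraries differed several-fold within MUL-HSC and within PEM-HSC. The 3 PLT-HSC libraries lay closer, between 60.4 and 86.8 CPM. Whether they are copies of one sequence that share reads was not tested, and their values are uncertain for that reason. At the other end were regions whose group means hardly differed. At chr1:52288758-52290583 the mean was 98.9 ± 7.81 CPM in MUL-HSC (SD, n = 4), against 99.2 ± 12.4 in PEM-HSC (SD, n = 6) and 99.0 ± 9.53 in PLT-HSC (SD, n = 3). The other 4 regions with the smallest summed change among those of at least 40 CPM were chr15:12250380-12252152, chr2:153269246-153271722, chr1:75137854-75139910 and chr15:10643157-10645416, with means of 46.5 to 48.4 CPM. Being the smallest of 1957, these values describe the floor of the range.

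Broad regions were spread over all autosomes and mostly stood alone. They made up 2.27% of the regions of chromosome 16, the lowest share, and 3.46% of those of chromosome 19, the highest. From edge to edge, the next region of any width lay a median of 5720 bp away for broad regions and 2840 bp away for narrow ones. Measured between midpoints, which puts neighbours of wider regions farther away, none lay within 10 kb of 29.8% of broad and 18.3% of narrow regions. Another broad region lay within 50 kb of 595 of the 3124 broad regions, and a broad region lay that near 9647 of the 42749 narrow ones (22.6%). When broad regions less than 50 kb apart were joined into loci, 2529 stood alone, 237 loci held 2, 33 held 3, 4 held 4 and 1 held 6. Joining neighbours thus left 81.0% of members on their own.

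The locus of 6 spanned chr2:164570510-164738076, where 19 regions of any width were listed. Its broad members ran from 18.1 CPM at chr2:164682254-164683958 to 71.8 CPM at chr2:164703992-164705936. The other 4 loci, of 4 broad regions each, were chr19:46378637-46433145 (34.8 to 76.5 CPM), chr3:51079833-51163668 (14.6 to 99.9 CPM), chr6:82982681-83088272 (13.6 to 62.4 CPM) and chr18:35974388-36080236 (32.2 to 79.9 CPM). Broad regions of one locus thus differed in level in all 5 loci, most in that of chromosome 3 and least in that of chromosome 19. In the chromosome 2 locus 2 of the 6 rose in PLT-HSC against MUL-HSC, as given below. None of the 16 broad regions in the other 4 loci passed the threshold in any comparison.

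The first comparison set PLT-HSC against MUL-HSC, that is P-restricted against multilineage recipients. Of 3124 broad regions 34 passed the threshold of an adjusted p under 0.05, 20 higher and 14 lower in PLT-HSC (1.09%). Over all 59408 tested regions 2.41% passed (1.13% higher and 1.28% lower), and 525 of 20569 narrow regions did (2.55%). Below 10 CPM 1 of 28 broad regions (3.57%) and 463 of 17997 narrow ones (2.57%) passed. From 10 to 20 CPM it was 3 of 270 (1.11%) and 55 of 2140 (2.57%). From 20 to 40 CPM 17 of 869 broad regions (1.96%) and 7 of 387 narrow ones (1.81%) passed. From 40 to 80 CPM it was 12 of 1452 broad regions (0.826%) and 0 of 36 narrow ones, and from 80 CPM 1 of 505 (0.198%) and 0 of 9.

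Measured changes between these groups were small at broad regions. The median absolute log2 fold change was 0.11 over broad regions, 0.26 over all tested regions and 0.35 over narrow ones, and 20 broad regions (0.640%) changed by over 1 on the log2 scale in either direction, against 7.88% of all tested regions. The median signed log2 fold change was 0.03 for broad and 0.01 for all tested regions, and without MUL-HSC replicate 4 the broad median was -0.0058. The median SE was 0.14 for broad and 0.39 for narrow regions, above the median absolute change in each class. The medians of the 2 classes thus compare precision as well as change. Within bands from 10 to 40 CPM the classes were close, as given above. The smallest change that passed was 0.44 for broad and 0.64 for narrow regions. PLT-HSC and MUL-HSC libraries did not overlap in 282 broad regions (9.03%), against 13.3% of all tested regions, and in 32 of the 34 that passed.

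**Figure D4:**
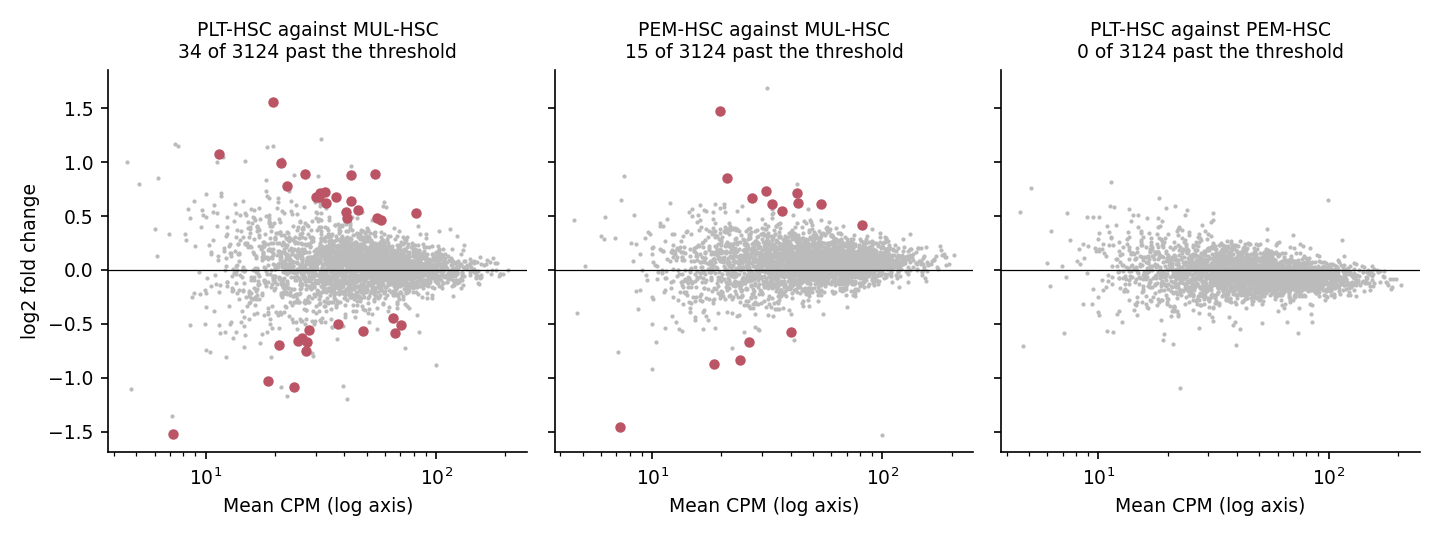
Log2 fold change of each of the 3124 broad regions against its mean CPM (log axis) in the 3 comparisons; red points passed the threshold. The left panel (PLT-HSC against MUL-HSC) has 34 red points, the middle one (PEM-HSC against MUL-HSC) 15 and the right one (PLT-HSC against PEM-HSC) 0, and the grey cloud narrows as CPM rises.

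The region of smallest p was chr6:31467312-31469436. It read 32.7, 28.7, 42.1 and 42.9 CPM in MUL-HSC, 70.3, 77.8 and 61.9 in PLT-HSC, and 50.8 to 65.4 with a median of 55.8 in PEM-HSC. Every PLT-HSC and PEM-HSC library lay above every MUL-HSC library. PLT-HSC rose by 0.89 ± 0.14 on the log2 scale (SE; adjusted p = 0.000704, edgeR quasi-likelihood test). Next by p among the regions that rose was chr1:191551129-191552860. It read 28.1, 20.4, 36.1 and 26.6 CPM in MUL-HSC, 60.1, 53.6 and 43.2 in PLT-HSC, and 42.5 to 59.0 with a median of 45.0 in PEM-HSC. Again no MUL-HSC library reached the other groups, and PLT-HSC rose by 0.88 ± 0.16 (adjusted p = 0.00263, same test). The third of those that rose, chr13:59936097-59937894, read 22.2, 17.4, 18.8 and 15.2 CPM in MUL-HSC and 34.8, 37.0 and 30.2 in PLT-HSC, a rise of 0.89 ± 0.16 (adjusted p = 0.00315, same test).

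The largest rise, 1.56 ± 0.29 (SE; adjusted p = 0.00572, edgeR quasi-likelihood test), was at chr13:108389775-108391454. MUL-HSC libraries read 9.36, 5.29, 8.23 and 10.4 CPM there and PLT-HSC libraries 22.0, 39.6 and 17.2, so PLT-HSC was higher throughout but its own libraries spread widely. The other 4 of the 8 that rose with the smallest p were chr3:30144886-30146488 (log2 fold change 0.99 ± 0.21), chr2:128523833-128525399 (0.67 ± 0.14), chr19:10175227-10176828 (0.52 ± 0.11) and chr13:101321303-101323339 (0.73 ± 0.16), with adjusted p of 0.00915 to 0.0144. No library of PLT-HSC overlapped MUL-HSC at any of these 8.

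Of the regions that fell, chr2:33724935-33726655 had the smallest p. It read 42.7, 41.5, 28.4 and 30.8 CPM in MUL-HSC, 14.3, 17.9 and 17.8 in PLT-HSC, and 16.9 to 28.0 with a median of 18.5 in PEM-HSC. PLT-HSC fell by 1.09 ± 0.19 on the log2 scale (SE; adjusted p = 0.00253, edgeR quasi-likelihood test), with no overlap between MUL-HSC and the other groups. At chr12:15822007-15824094 the pattern was another. MUL-HSC read 73.1, 71.7, 82.3 and 69.8 CPM, PEM-HSC 65.1 to 72.8 with a median of 69.6, and PLT-HSC 51.8, 43.0 and 53.1. PLT-HSC alone was low there and fell by 0.59 ± 0.11 (adjusted p = 0.00464, same test). At chr15:27631577-27633391, MUL-HSC read 33.9, 32.5, 23.3 and 22.5 CPM and PLT-HSC 12.5, 12.3 and 15.4, a fall of 1.03 ± 0.21 (adjusted p = 0.00812, same test).

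**Figure D5:**
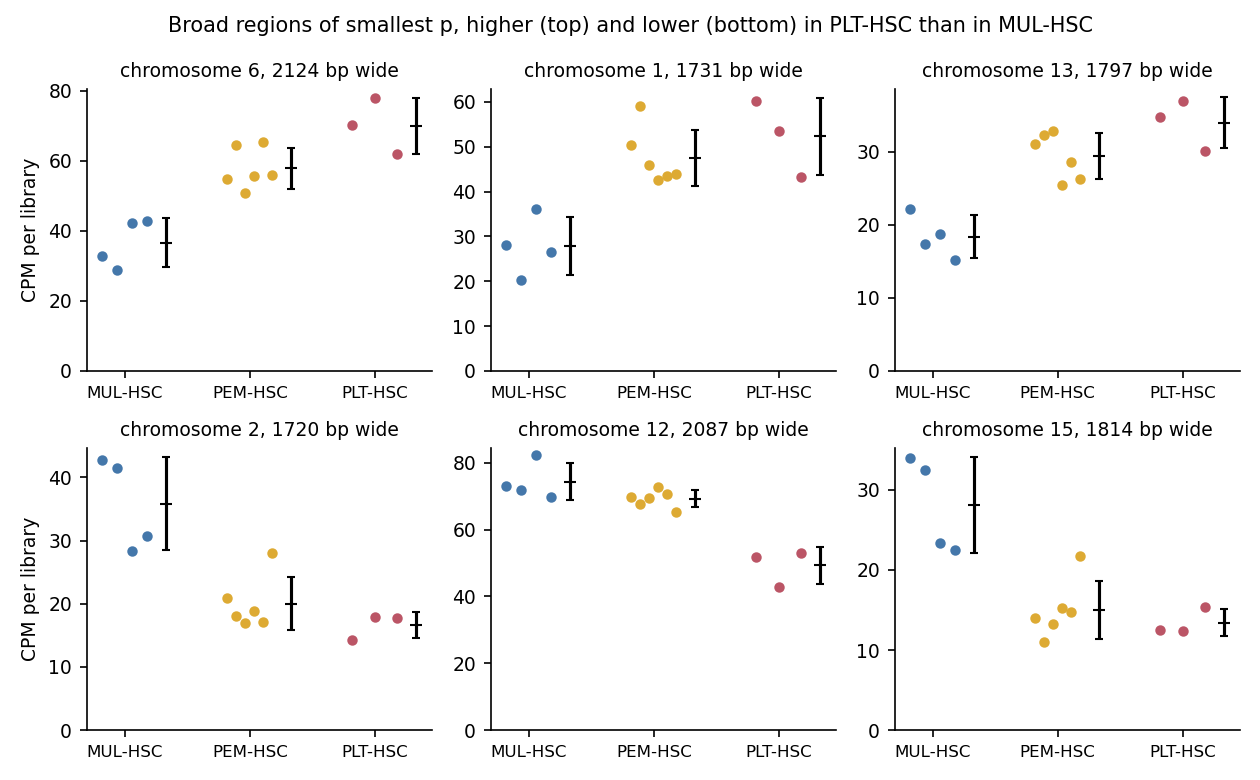
CPM in every library at the 3 broad regions of smallest p that rose (top row) and the 3 that fell (bottom row) in PLT-HSC against MUL-HSC; points are libraries and the black mark and bar give the group mean and SD. PEM-HSC lies with PLT-HSC, or between the groups, in 5 panels, and with MUL-HSC at the chromosome 12 region, where PEM-HSC libraries read 65.1 to 72.8 CPM.

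The largest fall, 1.52 ± 0.35 (SE; adjusted p = 0.0177, edgeR quasi-likelihood test), was at the weak region chr13:38734481-38736144. MUL-HSC libraries read 15.2, 3.02, 17.4 and 14.9 CPM and PLT-HSC libraries 4.76, 5.53 and 3.62. MUL-HSC replicate 2 was thus as low as PLT-HSC, and the groups overlapped. The other 4 of the 8 that fell with the smallest p were chr2:131854331-131856260 (log2 fold change -0.57 ± 0.13), chr15:66800048-66801951 (-0.44 ± 0.11), chr1:157624275-157625849 (-0.75 ± 0.19) and chr3:101015784-101017546 (-0.66 ± 0.17), with adjusted p of 0.0208 to 0.0343.

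The 34 regions were not the strongest members. Their median was 32.2 CPM against 48.5 CPM for the others, and 27 of the 34 lay below the members' median. Their widths ran from 1528 to 2668 bp, with a median of 1724 bp against 1697 bp. The PEM-HSC mean lay between the other 2 in 32 of the 34; the comparisons share libraries, so this is a description. Chromosomes 2 and 13 held 6 each, of 261 and 143 broad regions there, counts picked out after the values were seen. Around 23 of the 34 lay 36 other tested regions of any width within 10 kb, and the rest had none. Of these 36, 29 (80.6%) had a fold change of the same sign and 4 passed the threshold, all 4 with the same sign. Around the 3090 broad regions that did not pass, 1599 of 3018 such neighbours (53.0%) had the same sign and 59 (1.95%) passed, which is a description with no test.

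Of the 34, 2 pairs lay within 200 kb of each other, and both members of each rose. On chromosome 1, chr1:191683998-191685564 rose by 0.78 ± 0.20 (SE; adjusted p = 0.0313, edgeR quasi-likelihood test), 131 kb from the chromosome 1 region described above. On chromosome 2 the pair lay 124 kb apart in the locus of 6 broad regions. At chr2:164610648-164612201 MUL-HSC read 32.2, 36.2, 40.2 and 31.8 CPM and PLT-HSC 47.6, 51.9 and 48.0, a rise of 0.48 ± 0.13 (adjusted p = 0.0390, same test). At chr2:164736507-164738076 MUL-HSC read 49.7, 49.1, 40.2 and 42.2 CPM and PLT-HSC 65.5, 65.9 and 57.0, a rise of 0.48 ± 0.12 (adjusted p = 0.0276, same test). The 4 broad regions of that locus that did not pass had log2 fold changes of -0.24 to 0.15.

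The count of 34 depended on single libraries. It fell to 7 and 14 when replicate 1 or 2 of PLT-HSC was left out and to 17, 16 and 16 for replicates 1, 2 and 4 of MUL-HSC. The largest rise was to 47, without PEM-HSC replicate 3. The count was 11 without the 5 libraries under 2000000 counts, which left MUL-HSC with replicates 3 and 4. Of the 16 regions named here for this comparison, chr6:31467312-31469436, chr1:191551129-191552860, chr13:59936097-59937894 and chr12:15822007-15824094 passed in all 22 further fits (highest adjusted p 0.0192, 0.0488, 0.0287 and 0.0399, edgeR quasi-likelihood test or DESeq2). Of the rest, 9, 4 and 2 lost the threshold when replicates 1, 2 and 3 of PLT-HSC were left out in turn, and 5 each for replicates 1, 2 and 4 of MUL-HSC, at adjusted p of 0.0505 to 0.232. Without the 5 small libraries 10 of the 16 lost it (adjusted p of 0.0549 to 0.233) and with all libraries thinned to the smallest total 7 did, and none changed direction in any fit.

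The second comparison set PEM-HSC against the same MUL-HSC libraries. Of 3124 broad regions 15 passed, 10 higher and 5 lower in PEM-HSC (0.480%), against 0.832% of all tested regions (0.242% higher and 0.589% lower) and 0.836% of narrow ones. The broad regions as a set sat slightly higher in PEM-HSC. Their median log2 fold change was 0.07 against 0.01 over all tested regions, and 69.7% of them were above 0, against 51.9% of all tested regions. That median was 0.0092 with cyclic loess offsets, which level intensity-dependent differences between libraries. Broad regions are mostly strong, so such offsets take out a shift of this kind whatever its source. The median was 0.05 without PEM-HSC replicate 3, and 0.043 without MUL-HSC replicate 4, the lowest when single libraries were left out. Libraries of the 2 groups did not overlap in 104 broad regions (3.33%), against 3.62% of all tested regions, and in 14 of the 15 that passed.

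At chr13:108389775-108391454 the PEM-HSC libraries read 17.7 to 34.1 CPM with a median of 23.4, all above the 5.29 to 10.4 CPM of MUL-HSC. This was the largest rise, 1.47 ± 0.26 (SE; adjusted p = 0.00976, edgeR quasi-likelihood test). At chr14:64224735-64226272 MUL-HSC read 25.1, 24.9, 21.5 and 15.9 CPM and PEM-HSC 33.1 to 41.7 with a median of 35.4, a rise of 0.73 ± 0.14 (adjusted p = 0.0136, same test). PLT-HSC read 37.5, 28.1 and 35.6 CPM there and also rose against MUL-HSC, by 0.67 ± 0.16 (adjusted p = 0.0221, same test). At chr4:8617042-8619460, 2418 bp wide, MUL-HSC read 28.1, 36.2, 32.9 and 30.4 CPM and PEM-HSC 40.4 to 57.4 with a median of 50.3. PEM-HSC rose there by 0.62 ± 0.13 (adjusted p = 0.0190, same test), and PLT-HSC against MUL-HSC gave 0.49 ± 0.15 (adjusted p = 0.0648, same test), short of the threshold.

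The other 5 of the 8 that rose with the smallest p were also named above for PLT-HSC: chr1:191551129-191552860 (log2 fold change 0.72 ± 0.14 in PEM-HSC), chr6:31467312-31469436 (0.61 ± 0.12), chr3:30144886-30146488 (0.85 ± 0.19), chr13:59936097-59937894 (0.67 ± 0.15) and chr2:128523833-128525399 (0.55 ± 0.13). Of the 5 that fell, chr2:33724935-33726655 (-0.84 ± 0.16), chr15:27631577-27633391 (-0.88 ± 0.18) and chr13:38734481-38736144 (-1.45 ± 0.30) were likewise named for PLT-HSC. The remaining 2 were chr4:139195723-139197450, which read 32.2, 35.5, 40.2 and 32.2 CPM in MUL-HSC and 17.1 to 27.2 with a median of 22.0 in PEM-HSC, and chr9:16019253-16021109, which read 50.9, 59.6, 42.5 and 51.2 CPM in MUL-HSC and 27.5 to 40.7 with a median of 32.9 in PEM-HSC. They fell by 0.67 ± 0.15 and 0.58 ± 0.13 (SE; adjusted p = 0.0252 and 0.0264, edgeR quasi-likelihood test), with no overlap. The first of them also fell in PLT-HSC against MUL-HSC, by 0.63 ± 0.17 (adjusted p = 0.0394, same test), and the second gave -0.41 ± 0.15 there (adjusted p = 0.132, same test), short of the threshold. Around 9 of the 15 lay 11 other tested regions within 10 kb, and the rest had none. Of these 11, 7 (63.6%) had the same sign and 0 passed, beside 52.7% and 0.690% of the 3043 neighbours of broad regions that did not pass.

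The count of 15 fell to 3, 4 and 5 without MUL-HSC replicates 1, 2 and 4 and to 8 without PEM-HSC replicate 1, and rose to 29 without MUL-HSC replicate 3 and 23 without PEM-HSC replicate 4. It was 1 without the 5 libraries under 2000000 counts. None of the 13 regions named for this comparison passed in every further fit: 10, 9, 3 and 8 lost the threshold without MUL-HSC replicates 1 to 4 in turn, and 6, 3 and 4 without PEM-HSC replicates 1, 2 and 5, at adjusted p of 0.0503 to 0.179. Without the 5 small libraries 12 of the 13 lost it (adjusted p of 0.138 to 0.471) and with thinning 3 did, and none changed direction in any fit.

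The third comparison set the 2 restricted groups against each other, PLT-HSC against PEM-HSC. By edgeR's quasi-likelihood test 0 broad regions passed, 0.00168% of all tested regions did, and DESeq2 also called 0 broad regions. At an unadjusted p under 0.05 there were 112 broad regions (3.59%), against 4.61% of all tested regions. The median absolute log2 fold change was 0.09 over broad and 0.17 over all tested regions. The signed median was -0.039 over broad regions, 36.3% of which were above 0, against 49.99% of all tested regions. This median was 0.0068 with cyclic loess offsets and -0.0206 without PEM-HSC replicate 3. Libraries of the 2 groups did not overlap in 63 broad regions (2.02%; 13 higher and 50 lower in PLT-HSC), against 2.28% of all tested regions. The 3 of smallest p were chr12:15822007-15824094 (log2 fold change -0.48 ± 0.10), chr13:13529530-13531160 (0.81 ± 0.23) and chr17:47591468-47593145 (0.51 ± 0.15), with adjusted p of 0.519, 0.922 and 0.922 (SE; edgeR quasi-likelihood test). At the last, PLT-HSC libraries read 31.0, 30.2 and 31.1 CPM and PEM-HSC libraries 16.4 to 25.2 with a median of 22.4, without overlap. A difference at broad regions between the restricted groups was not detectable here, which does not show that they are alike.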

How the data were processed

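The authors deposited 1 table of raw counts per region for 13 libraries. The submitters' processing notes name mm9 and, in no stated order, MACS2, Picard, SAMtools, Bowtie2, FastQC and Trim Galore. What counted the reads, whether peaks were called on pooled libraries, how duplicates were handled, whether read ends were shifted, and all versions and settings: not given in the sources used here. If regions were called on pooled reads, deep libraries weigh more in their edges. Positions are printed as deposited, with the base of the start coordinate unstated. Without an mm9 annotation or genome, no gene or sequence is assigned, and gene and cell type lists were not used.

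The members and lists were chosen with earlier results of these data known. Counts were tested in R 4.3.3 with edgeR 4.0.16 (filterByExpr by group, TMM, robust quasi-likelihood fit of all 13 libraries, two-sided). P-values were adjusted by the Benjamini-Hochberg method over 59408 tested regions and called at 0.05. CPM uses TMM-scaled totals. The SE is the size of the log2 fold change over the root of F. The CV beyond counting takes 1 over the mean count off the squared CV. The text names the 8 widest regions, the 5 strongest and 5 weakest per kb, the 8 of smallest p per direction and comparison past the threshold (the 3 of smallest p where none passed), the 5 least changed of at least 40 CPM, and the 5 fullest loci. The 24 pairs of libraries within groups differed beyond sampling noise (chi-square per degree of freedom 1.42 to 2.65). The test was also run on simulated counts that gave all regions a common spread, which the data need not have. No result here rests on that run. Alternatives were DESeq2 1.42.0, scaling by totals, cyclic loess (limma 3.58.1), keeping every region, keeping regions that average 20 counts or more, fitting just the pair of groups compared, a block for the replicate number, leaving out each library or the 5 small ones, thinning to the smallest total, and widths of 1200 and 2000 bp.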

Additional observations from a re-analysis of the deposited data

Results flagged for a closer look

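In 136 groups of 4 or 6 libraries tested, 11 had a library far outside the range of the others, where chance gives about 1 in 20, or 6.8. PEM-HSC replicate 3 had 18.2% of its counts in broad regions, with 16.4% to 16.9% in the other 5. It also read 260.3 CPM at chr11:97048190-97050099 (others 174 to 197) and 88.4 CPM at chr18:36077986-36080236 (62.9 to 71.8). PEM-HSC replicate 6 read 115 CPM at chr12:60137115-60140073 (33.1 to 53.5) and 28.0 CPM at chr2:33724935-33726655 (16.9 to 21.0). PEM-HSC replicate 5 read 34.1 CPM at chr13:108389775-108391454 (17.7 to 23.8).

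In MUL-HSC, replicate 1 read 111 CPM at chr1:52288758-52290583 (others 93.6 to 96.0) and 45.6 CPM at chr18:36032706-36035017 (59.9 to 62.7). MUL-HSC replicate 2 read 2.27 CPM at chr10:70061092-70062742 (4.68 to 5.03), replicate 3 read 43.4 CPM at chr19:46431089-46433145 (34.7 to 35.7), and replicate 4 read 41.1 CPM at chr2:153269246-153271722 (47.6 to 48.5).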

How the results depend on the processing

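Leaving out each library in turn gave 7 to 47 broad regions past the threshold for PLT-HSC against MUL-HSC, 3 to 29 for PEM-HSC against MUL-HSC and 0 throughout for PLT-HSC against PEM-HSC, which was also 0 in the other 9 fits. The replicate number as a block gave 19 and 5 for the comparisons with MUL-HSC, leaving out the 5 libraries under 2000000 counts 11 and 1 with fewer samples, and thinning 16 and 12. Of the 10 correlations between samples with the same number 0 lay above 0.1 (range -0.135 to 0.0967). Between samples with different numbers 7 of 44 did (range -0.154 to 0.212). These values show no pairing by number, but so few weak correlations cannot show that no batch was shared. The labels name no batch, so the block is given as an alternative fit only. Cyclic loess moved the median log2 fold change of PEM-HSC against MUL-HSC from 0.07 to 0.0092. With a minimum width of 1200 bp the share of counts was 33.4%, 34.8% and 33.9% in MUL-HSC, PEM-HSC and PLT-HSC, and with 2000 bp 3.33%, 3.49% and 3.36%, since other regions are counted. The level ratio per kb was 4.28 with 2000 bp and 1.14 with a mean of at least 20 counts, where the CV beyond counting of narrow regions was 12.95%. Named regions that passed reversed in 0 of 636 fits and lost the threshold in 121, of which the block gave 5 of 16 for PLT-HSC and 8 of 13 for PEM-HSC against MUL-HSC, and DESeq2 1 each. Depth limits weak members most: 28 had under 10 CPM. The weak region chr13:38734481-38736144 has no value under the stricter filter.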
